A study of Mus musculus with 4 samples.

Results

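The GABA-A receptor subunit genes Gabra2, Gabra3, Gabra4, Gabra5, Gabrb1, Gabrb2 and Gabrg1 were measured in the globus pallidus of mice given cocaine or saline. Features were taken where the platform's probe annotation gives exactly one of these symbols, which gave 25 features for 7 of the 18861 genes tested. Male C57BL6 mice went through conditioned place preference, a test of how strongly an animal seeks out the place where it was given a drug. The cocaine mice received 15 mg/kg at D2, D3 and D4 of the protocol and had a high preference score, and the saline mice received saline at the same steps. On each of 4 two-colour Agilent arrays a cocaine mouse was hybridised against a saline mouse, so the data hold 4 mouse pairs (4 mice per treatment). Cocaine RNA carried the dye Cy5 in pairs 1 and 3 and Cy3 in pairs 2 and 4. All mice had the same labelled strain, sex and tissue, and age is not in the labels used here.

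GABA-A receptors are pentameric chloride channels opened by GABA, and most are built from alpha, beta and gamma subunits. The alpha subunit largely sets the sensitivity to GABA and to benzodiazepines, beta subunits form part of the GABA binding site, and gamma subunits help to place receptors at synapses. In the globus pallidus such receptors take up the dense inhibitory input from the striatum and from neighbouring pallidal neurons.

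None of the 7 subunits passed an adjusted p under 0.05 in the test of cocaine against saline. Gabra4 had the largest change, about 1.41-fold higher in cocaine (95% interval 1.03 to 1.93, not adjusted for the number of genes), with pairs 1 and 2 high and pair 4 below 0. The other 6 genes lay between -0.063 and 0.14 on the log2 scale. For each of the 7 genes the SD over pairs was larger than the fitted change. This SD holds the dye difference and is not the error of the fit, which was 0.19 for Gabra4. Features of the same gene disagreed for Gabra2, Gabra3 and Gabrb2.

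Values are log2 ratios of cocaine over saline after normalization within each array. Cocaine as the numerator is the likely direction, because the design text compares cocaine mice with saline mice, but the files do not state it. If it is the reverse, every sign turns, and Gabra4 would be at 0.709-fold in cocaine (interval 0.517 to 0.971). The SE is limma's moderated standard error after a dye term, and precision is limited by having 4 arrays. Adjusted p-values are limma's, by Benjamini-Hochberg over all 18861 genes. In RNA of whole tissue, fewer cells of a type and less RNA per cell cannot be told apart. Each channel carries a code of its own in the sample titles, and the pairs were taken as separate mice.

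Depth on an array is the brightness of a feature, the spot that holds one probe. The deposited ratios were read as holding background that was not removed, which would understate the changes of dim features. The size of this was not measured. Signals recovered from the ratios had a median of 131 scanner units over features listed with 1 gene and a 5th percentile of 63.5 over all features, near the scanner's background. Recovered signals of repeated features of the same accession had a median SD of 0.51 on the log2 scale. This is a typical precision, and single signals can be less certain. For the 10 repeated features of Gabrg1 the SD was 0.73. The deposited ratios of repeated features of the same accession had a median SD of 0.093 to 0.102 in the 4 pairs. The 13 markers of pallidal neurons had signals from 107 (Sox6) to 4105 units (Npas1), with a median of 1143 against 156 over all genes. The 6 cortical markers measured ran from 66.7 (Slc17a7) to 347 units (Emx1), with a median of 76.9. The 16 striatal markers ran from 78.7 (Gpr6) to 2442 units (Meis2), with a median of 383. Penk, at 1430 units, is on both the pallidal and the striatal list.

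Ordered by the brightest feature of each gene, or for Gabrg1 by the median of its 10 repeated features, the subunits ran from Gabrb2 to Gabra2. The order is that of feature brightness and not of RNA amount, because probes bind with different strength. Gabrb2, a beta subunit common in adult brain, reached 22978 units, in the 99.7th percentile of features. Gabrg1, a gamma subunit with restricted expression, had 3726 units. Gabrb1 and Gabra4, at 1652 and 1426 units, did not differ beyond the spread of recovered signals. Gabra3 had 817, Gabra5 346 and Gabra2 164 units. Gabra2 was thus the dimmest, little above the median feature, and its 3 features agreed on that (156 to 164 units). Of the 25 features, 5 lay below the median signal: 2 of Gabra3, 2 of Gabrb2 and 1 of Gabrg1.

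**Figure D1:**
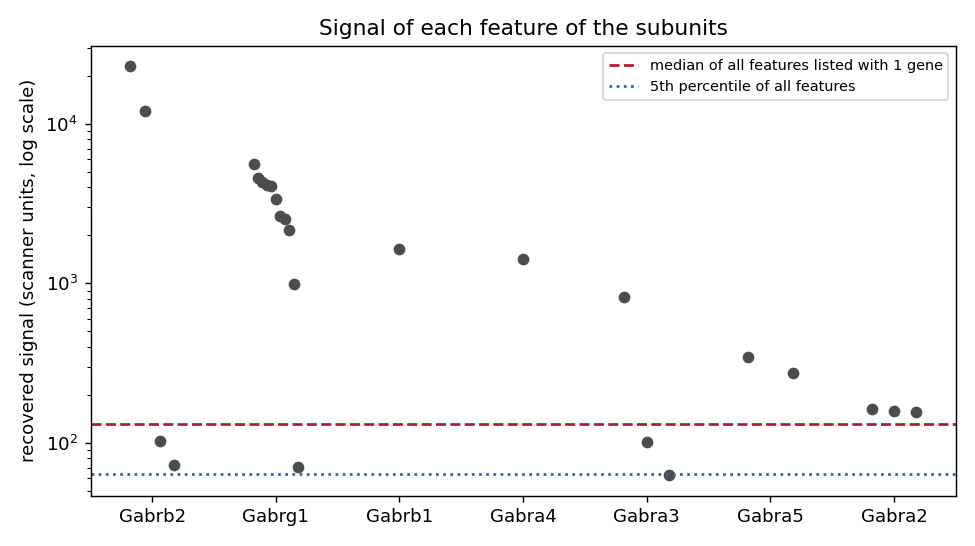
Recovered signal of every feature (points, scanner units, log scale) for the 7 subunit genes, ordered by their brightest accession, with the median of all features listed with 1 gene (dashed) and the 5th percentile of all features (dotted). Gabrb2, Gabrg1 and Gabra3 each have bright features and at least 1 near the dotted line at 63.5 units, while the 3 features of Gabra2 sit together just above the dashed line at 131 units.

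Gabra4 encodes the alpha4 subunit, which is known from extrasynaptic receptors that often contain the delta subunit and are insensitive to classical benzodiazepines. Its single feature had deposited ratios of 1.98, -1.17, 1.45 and -1.25 in pairs 1 to 4. After normalization these were 0.93, 0.90, 0.32 and -0.16. Pairs 1 and 2, of opposite dye orientation, were the highest, pair 3 was moderately high and pair 4 fell below 0. The fitted change was 0.50 ± 0.19 (moderated SE, n = 4), with an unadjusted p of 0.0370 and an adjusted p of 0.964 in limma. At an adjusted p under 0.05, 0% of genes were called, and at an unadjusted p under 0.05, 2.66% were (501 genes; 0.88% higher and 1.78% lower in cocaine). Gabra4, on the higher side, was the 1 member of 7 in the latter group. Only 3 genes had a larger positive change, and 16 had a larger change in absolute size. The change fell to 0.23 when pair 2 was left out and came to 0.76 when pair 4 was left out. The unnormalized ratios gave 0.25, with the median of all genes at -0.081, and median centring gave 0.32.

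Gabra4 has a close neighbour that allows a comparison within the same stretch of DNA. In the RefSeq annotation (GRCm38.p6), Gabra4, on the minus strand, and Gabrb1, on the plus strand, start head to head on chromosome 5, with the first Gabrb1 start 387 bases inside Gabra4. The windows from 250 bases before to 50 bases after each start are shown because they hold both starts, with CpG dinucleotides in capitals.
Gabra4 (chr5:71658259-71658558, minus strand): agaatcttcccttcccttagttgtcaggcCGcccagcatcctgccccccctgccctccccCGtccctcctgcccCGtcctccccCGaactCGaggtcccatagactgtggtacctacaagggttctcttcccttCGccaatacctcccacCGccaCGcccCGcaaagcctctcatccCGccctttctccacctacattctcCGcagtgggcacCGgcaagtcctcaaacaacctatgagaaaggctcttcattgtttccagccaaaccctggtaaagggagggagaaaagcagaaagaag
Gabrb1 (chr5:71657671-71657970, plus strand): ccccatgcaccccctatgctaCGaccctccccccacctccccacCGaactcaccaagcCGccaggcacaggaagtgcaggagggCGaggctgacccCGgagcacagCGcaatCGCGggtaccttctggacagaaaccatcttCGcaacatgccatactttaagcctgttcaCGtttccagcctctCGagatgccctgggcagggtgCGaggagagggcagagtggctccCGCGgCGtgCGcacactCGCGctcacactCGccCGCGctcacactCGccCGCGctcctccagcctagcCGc
RefSeq also lists a later Gabrb1 start, with 9 CpG in its window, which is not shown. Which start the Gabrb1 feature reads was not tested. Of the windows shown, that of Gabra4 holds 12 CpG and that of Gabrb1 25, against a median of 7 over 32851 RefSeq windows of that length. A GC box (GGGCGG or its complement CCGCCC) was found in the Gabra4 window and not in this Gabrb1 window, and 35.7% of all windows hold one. Neither window holds a TATAAA box (13.6% of all windows, both strands), a TGACGTCA element (1.79%) or the Egr motif GCGTGGGCG (0.612%, both strands).

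Gabrb1, a beta subunit, did not move with Gabra4. Its single feature had ratios of -0.17, -0.22, 0.18 and 0.017 in pairs 1 to 4, low in the pairs where Gabra4 was high. The fitted change was -0.046 ± 0.081 (moderated SE, n = 4; interval -0.25 to 0.15 on the log2 scale), with an adjusted p of 0.974 in limma. Within each pair, Gabra4 minus Gabrb1 was 1.10, 1.12, 0.14 and -0.18. This difference was not tested, since Gabra4 was picked out for its change. Gabrb1 was at -0.30 with the ratios as deposited and -0.23 with median centring. Without pair 1 it was 0.042, without pair 2 0.013, without pair 3 -0.13 and without pair 4 -0.10.

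**Figure D2:**
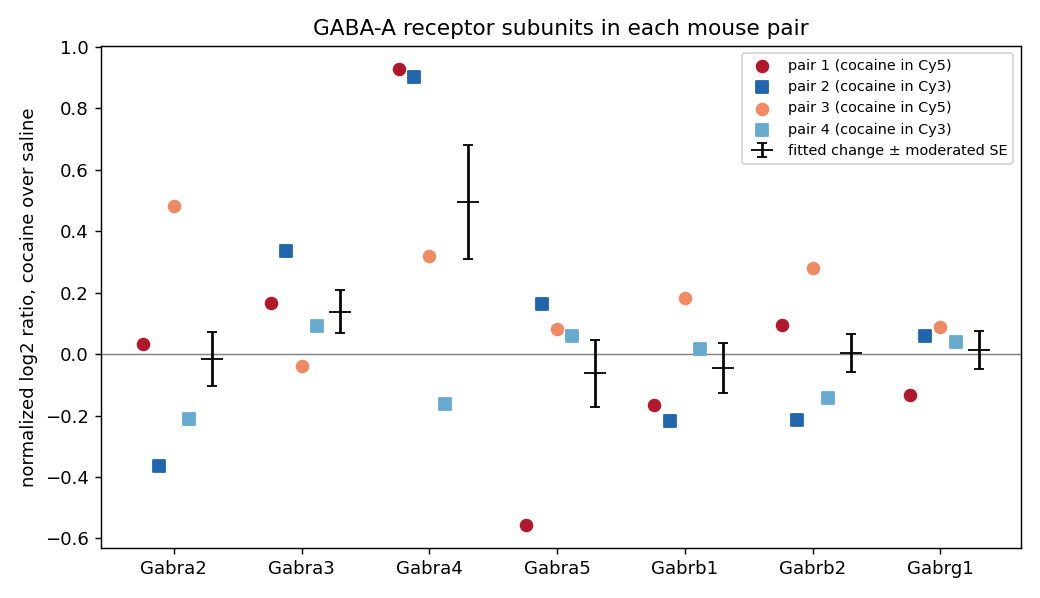
Normalized log2 ratio of cocaine over saline (vertical axis) for each subunit gene (horizontal axis) in the 4 mouse pairs, circles for cocaine in Cy5 and squares for cocaine in Cy3, with the fitted change and its moderated SE in black. Gabra4 stands at 0.93 and 0.90 in pairs 1 and 2 and below 0 in pair 4, Gabra5 is low in pair 1 alone at -0.56, and the fitted changes of the other genes are close to 0.

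The 2 remaining genes of that chromosome 5 cluster, Gabra2 and Gabrg1, had small fitted changes. Gabra2 encodes the alpha2 subunit, which in mice carries much of the anxiety-reducing action of benzodiazepines. Its gene mean was 0.031, -0.36, 0.48 and -0.21 in pairs 1 to 4, and the fitted change was -0.015 ± 0.088 (n = 4; interval -0.23 to 0.20) with an adjusted p of 0.993 in limma. The ratios alternated with the dye, with means of 0.26 where cocaine carried Cy5 and -0.29 where it carried Cy3. The dye term was 0.27 ± 0.088 and had an adjusted p of 0.116 in limma.

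The 3 features of Gabra2 agreed in pairs 2 to 4 and split in pair 1. In pair 3 they had 0.43 to 0.53, and in pair 4 -0.25 to -0.17. In pair 1 the features of AK079593 and AK048165 had 0.27 and 0.57, whereas that of NM_008066 had -0.75. The gene mean of pair 1 therefore averages features of opposite sign. The change was 0.098 without pair 1 and -0.13 without pair 3, and 0.044 with the brightest feature alone.

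Gabrg1 is the subunit measured most often within an array, because its accession NM_010252 is spotted 10 times on each. The 10 deposited ratios averaged 0.97 ± 0.038, -2.17 ± 0.029, 1.32 ± 0.024 and -1.12 ± 0.020 (SD over features) in pairs 1 to 4. These SDs are the spread of repeated spots on 1 array and not that between mice. After normalization the means were -0.13 ± 0.030, 0.035 ± 0.092, 0.13 ± 0.062 and 0.039 ± 0.044. Pair 1 was the low one, its 10 features lying between -0.18 and -0.088 and those of pair 3 between 0.082 and 0.28. Normalization, which subtracts a curve over the recovered signal, widened the spread in pairs 2, 3 and 4, and that signal ran from 992 to 5616 units over these features. The gene as a whole, with an 11th feature near background (70.2 units), had -0.13, 0.058, 0.088 and 0.040 and a fitted change of 0.013 ± 0.063 (n = 4; interval -0.14 to 0.17), with an adjusted p of 0.991 in limma. Its SD over pairs, 0.099, was at the 19.7th percentile of all genes. The sign was not stable, at -0.23 with the ratios as deposited, -0.16 with median centring, -0.041 without pair 3 and -0.0066 with features averaged within an accession first.

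Gabra3, on the X chromosome, encodes the alpha3 subunit, which is found at synapses of many subcortical neurons. Its brightest feature (accession NM_008067, 817 units) had ratios of 0.87, 0.65, 0.032 and 0.038 in pairs 1 to 4. It was above 0 in every pair and high in pairs 1 and 2, where Gabra4 was also high. A second feature of the same accession (102 units) had -0.28, 0.21, -0.16 and 0.081, and the feature of AK082413 (62.7 units) had -0.10, 0.14, 0.014 and 0.16. These 2 lay below the median signal and did not share the pattern in pair 1. Averaged, the gene had 0.16, 0.34, -0.039 and 0.092, and the fitted change was 0.14 ± 0.071 (n = 4; interval -0.036 to 0.31), with an unadjusted p of 0.0994 and an adjusted p of 0.964 in limma. With the brightest feature alone, or without features below the median signal, the change was 0.40. Leaving out pair 2 gave 0.077, and the unnormalized ratios gave 0.058.

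Gabra5 encodes the alpha5 subunit, known for extrasynaptic receptors of the hippocampus. Both of its features belong to NM_176942, and both were low in pair 1, at -0.37 and -0.74. In pairs 2 to 4 they had 0.16, -0.0023 and 0.068 for the brighter feature and 0.16, 0.17 and 0.053 for the other. The gene mean was -0.56, 0.16, 0.082 and 0.060, and the fitted change was -0.063 ± 0.11 (n = 4; interval -0.33 to 0.20), with an adjusted p of 0.974 in limma. Pair 1 alone decided its sign, since the change without pair 1 was 0.097. It was -0.22 without pair 3.

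Gabrb2, on chromosome 11, encodes the beta2 subunit, which is widespread in adult brain. Its 2 bright features went in opposite directions. The feature of AK032113 (22978 units) had ratios of 0.38, 0.44, 0.25 and -0.31 in pairs 1 to 4. The feature of NM_008070 (12138 units) had -0.51, -0.29, 0.11 and 0.16. They differed in sign in pairs 1, 2 and 4, and both were far above background. A second NM_008070 feature (103 units) had 0.58, -1.01, 0.84 and -0.58 and thus changed sign with the dye, and that of AK034069 (72.3 units) had -0.074, -0.0057, -0.078 and 0.14. The gene mean was 0.094, -0.22, 0.28 and -0.14, and the fitted change was 0.0039 ± 0.061 (n = 4; interval -0.15 to 0.15), with an adjusted p of 0.996 in limma. With the brightest feature the change was 0.19, and with median centring it was -0.090.

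**Figure D3:**
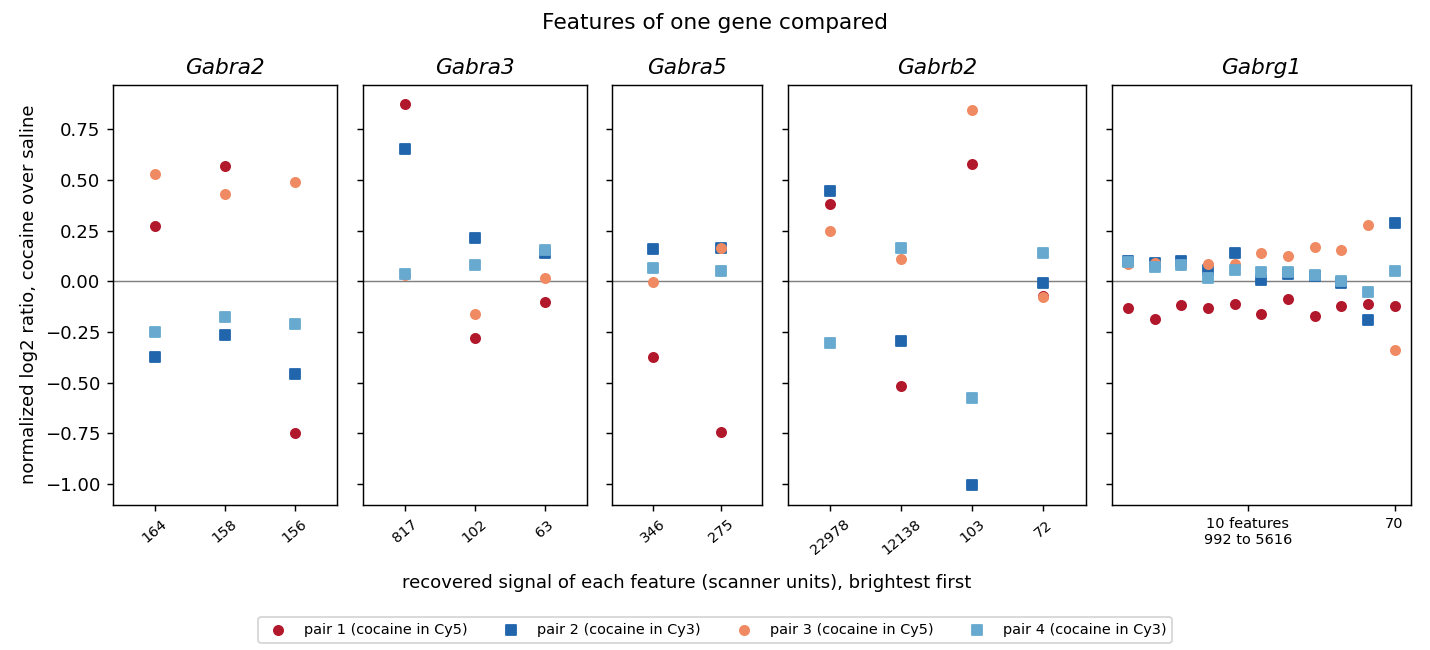
Normalized log2 ratio of cocaine over saline (vertical axis) for each feature of the 5 subunit genes with more than 1 feature, ordered from bright to dim with the recovered signal below, in the 4 mouse pairs. The brightest Gabra3 feature, at 0.87 and 0.65 in pairs 1 and 2, stands apart from its dim features. The bright Gabrb2 features differ in sign in pairs 1, 2 and 4. The 10 Gabrg1 features of NM_010252 lie between -0.19 and 0.28 over the 4 pairs.

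No member had the same sign in all 4 pairs, where 6.27% of all genes did. The number of members above 0 was 4, 4, 6 and 4 in pairs 1 to 4, and their median was 0.031, 0.058, 0.18 and 0.017. Over all genes the median was between -0.022 and 0.0075, and 46.0% to 52.0% were above 0. Fitted, 4 of 7 members and 8708 of all 18861 genes were above 0, with medians of 0.0039 and -0.0067. The spread over pairs was largest for Gabra4 (SD 0.52), more than in 94.8% of genes, followed by Gabra2 (0.37) and Gabra5 (0.33).

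The dye term was past the adjusted threshold for 0 of 7 members and for 7.89% of all genes. It was largest for Gabra2 at 0.27 and next for Gabrb2 at 0.18 ± 0.061, with an adjusted p of 0.125 in limma. For Gabra4 it was 0.13 ± 0.19, which is smaller than its SE. With the ratios as deposited the dye term was past the threshold for 7 of 7 members and with median centring for 6. Over all genes the normalized ratios still followed the dye orientation. They correlated at 0.49 between pairs 1 and 3 and at 0.48 between pairs 2 and 4. Between pairs of opposite orientation the correlations ran from -0.34 to -0.66.

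**Figure D4:**
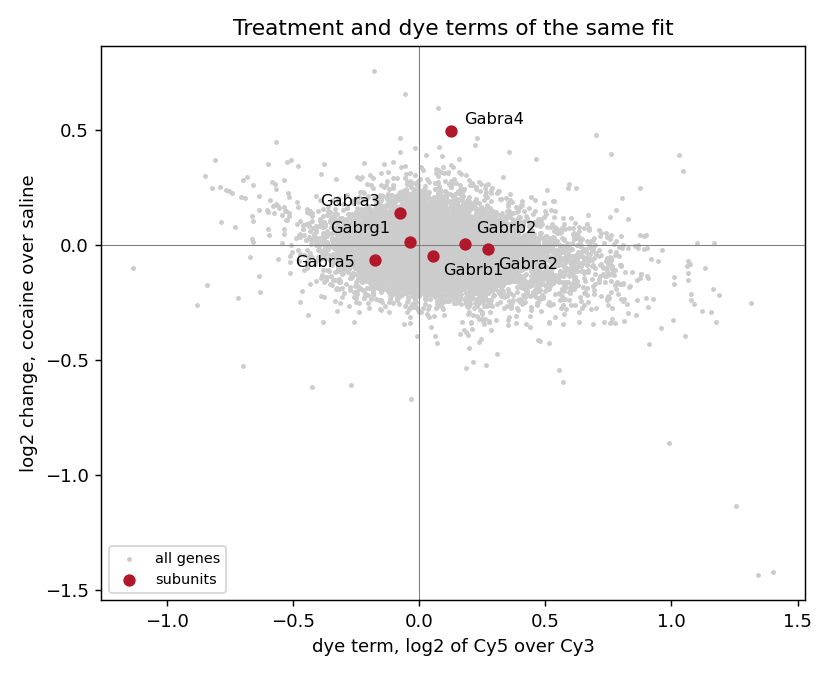
Fitted log2 change of cocaine over saline (vertical axis) against the dye term of the same fit, log2 of Cy5 over Cy3 (horizontal axis), for all 18861 genes (grey) and the 7 subunits (red). Gabra4, at 0.50, lies at the upper edge of the cloud with a dye term of 0.13, and the other subunits lie within the cloud.

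Likeness of pattern was measured as the Euclidean distance between the 4 normalized ratios, over 4 pairs. Between members the shortest distance was 0.27, from Gabra2 to Gabrb2, and the longest was 1.69, from Gabra4 to Gabra5. Gabra3 was the nearest member to Gabra4, at 1.05. Of all named genes, those nearest to Gabra4 were Amd2 (0.34), Mirg (0.42) and Atxn7 (0.43). Amd2 had 1.15, 0.99, 0.20 and 0.052 in pairs 1 to 4. Those nearest to Gabra5 were Atp5mpl (0.084), Npepps (0.097) and Dgkq (0.11), each low in pair 1, at -0.58, -0.65 and -0.53. All of these values share 4 arrays and their normalization.

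Cell markers differed between the same pairs. Of the striatal projection neuron markers, 16 of 19 were measured. Their median was -0.15 in pair 1 (from -0.62 to 0.22), 0.31 in pair 2 (from -0.29 to 2.03), -0.030 in pair 3 (from -0.34 to 0.17) and -0.078 in pair 4 (from -1.09 to 0.24). The highest marker of pair 2 and the lowest of pair 4 was Pdyn, the dynorphin precursor. The lowest marker of pair 2 was Ppp1r1b, at -0.29. Gabra4 had 0.93 in pair 1 and 0.90 in pair 2, where the striatal medians were -0.15 and 0.31. Of the oligodendrocyte markers, 5 of 9 were measured, with medians of 0.53 (from -0.26 to 1.18), -0.13 (from -0.70 to 0.13), -0.036 (from -0.26 to 0.12) and 0.084 (from -0.056 to 0.22). In pair 1, 4 of the 5 were above 0, against 49.2% of all genes, and Mag, the brightest, was at -0.26. This is the pair in which Gabra4 and the bright Gabra3 feature were high. In it Gabra5, Gabrb1 and Gabrg1 were low, at -0.56, -0.17 and -0.13, and Gabra2 and Gabrb2 were at 0.031 and 0.094. Astrocyte markers (8 of 9 measured) had medians of 0.15, -0.058, 0.18 and 0.0031, microglial markers (8 of 9) 0.080, -0.21, 0.21 and 0.0071, and pallidal markers (13 of 13) -0.060, -0.071, -0.018 and 0.021. Thalamic markers (6 of 6) had 0.18, -0.0054, 0.13 and -0.39, and cortical markers (6 of 7) -0.097, 0.010, -0.022 and 0.047. The part of the cell makeup in the subunits' ratios was not tested.

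Of the other GABA-A and GABA-C subunits, 8 of 12 were measured, and 0 passed the adjusted threshold in either direction. The rest were not analysed here. The 8 genes had a median signal of 95.2 units against 156 over all genes, and Gabrd was the brightest at 346. Fitted changes were below 0 for 7 of the 8, with a median of -0.040. Over all 18861 genes, 10153 were below 0, with a median of -0.0067. Gabrr1, of the rho subunits best known from retina, had 0.11, -0.48, 0.45 and -0.39 in pairs 1 to 4 and a change of -0.078 ± 0.074 (adjusted p = 0.964 in limma). Gabre, the epsilon subunit, had -0.30, 0.077, -0.077 and 0.10 and a change of -0.049 ± 0.063 (adjusted p = 0.964 in limma). Gabrd, the delta subunit that partners alpha4, had -0.12, 0.39, -0.090 and -0.44, a pattern that did not share the high pair 1 of Gabra4, and its change was -0.065 ± 0.13 (named for its link to alpha4 after its values were seen). The dye term passed for 3 of the 8, Gabra6, Gabrr1 and Gabrr2, and for 7.89% of all genes. These 3 had signals of 140, 109 and 89.0 units.

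Genes of receptor assembly, trafficking and anchoring had 19 of 21 measured, with 0 past the adjusted threshold. Of these 19, 7 were above 0, with a median of -0.0091, against 8708 of 18861 genes and a median of -0.0067. Plcl2, a phospholipase C-like protein whose family binds GABA-A receptors, was above 0 in every pair, at 0.054, 0.47, 0.038 and 0.22. Its change was 0.20 ± 0.065, with an unadjusted p of 0.0235 and an adjusted p of 0.964 in limma. It was 0.0075 with its brightest feature alone and 0.012 with the unnormalized ratios. Clptm1, which holds back receptor assembly, had -0.38, -0.073, -0.12 and 0.068 and a change of -0.13 ± 0.069 (adjusted p = 0.964 in limma). It was -0.060 without pair 1, -0.19 without pair 3, -0.33 with median centring and -0.40 with the unnormalized ratios.

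Chloride transport genes had 4 of 6 measured, 2 above 0 (8708 of 18861 over all genes), a median of 0.0052 and 0 past the adjusted threshold. The chloride transporter gene Clcn3 had 0.31, 0.020, -0.028 and 0.057 and a change of 0.090 ± 0.073 (adjusted p = 0.964 in limma), or 0.0052 without pair 1 and 0.18 without pair 3. Slc12a7, a potassium-chloride cotransporter, had 0.14, -0.67, 0.23 and 0.062 and a change of -0.060 ± 0.12 (adjusted p = 0.975 in limma), or 0.12 without pair 2 and -0.24 without pair 4. Of GABA synthesis and transport genes, 6 of 8 were measured, the median was -0.026 and 0 passed. Of these 6, 1 was above 0, against the same 8708 of 18861 over all genes. Slc6a11, a GABA transporter, had -0.019, -0.033, 0.0075 and -0.27 and a change of -0.080 ± 0.064 (adjusted p = 0.964 in limma). It was -0.019 without pair 4, -0.14 without pair 2, -0.012 with the brightest feature, -0.25 with median centring and -0.32 with the unnormalized ratios. Gad1, which makes GABA, had -0.29, 0.21, -0.088 and 0.40 and a change of 0.057 ± 0.067 (adjusted p = 0.964 in limma). It came to 0.0064 without pair 3, 0.0096 without pair 4, 0.10 without pair 2 and 0.11 without pair 1.

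**Figure D5:**
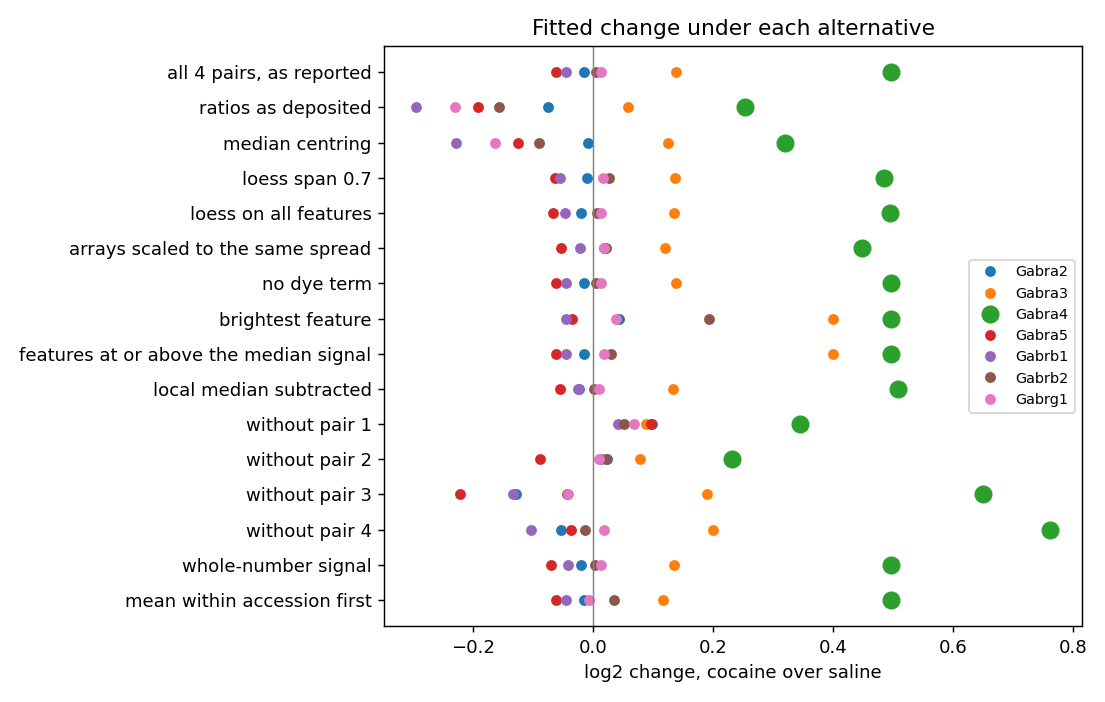
Fitted log2 change of cocaine over saline (horizontal axis) of the 7 subunits as reported and under 15 alternatives (vertical axis), with Gabra4 as large green points. Gabra4 stays above 0 throughout, from 0.23 without pair 2 to 0.76 without pair 4, Gabra3 reaches 0.40 with its brightest feature, and the others lie on either side of 0.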

How the data were processed

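For each of 45220 features, the authors deposited 1 log2 ratio from every array. Per the submitters' processing notes the authors used Agilent Feature Extraction; no version or settings are named there. On arrays 1 and 3 the value's power of 2 was a ratio of whole numbers (tolerance 1e-12) for 98.7% of values, so they were read as log2 ratios of unnormalized scanner medians. Column medians of 0.42, -0.58, 0.41 and -0.43 and correlations of -0.85 to -0.95 between dye orientations led to the columns being read as turned to 1 treatment direction. The design assumed normalization within arrays where the table has none. The signal was recovered for 98.2% of features from the fractions of arrays 1 and 3, read as medians in steps of 0.5 above a floor of 45. The same signal was used to normalize all 4 arrays, so arrays 2 and 4 rest on the signal of other mice. Loess (limma loessFit, span 0.3, 4 iterations) was run over those features that have a gene.

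Features of 1 symbol (33653) were averaged per gene. limma 3.58.1 in R 4.3.3 (lmFit, eBayes, two-sided, Benjamini-Hochberg) then estimated a dye term and a cocaine effect for 18861 genes, on 2 residual and 3.95 prior degrees of freedom. The code was tested on simulated data. Of the signals recovered there, 45.3% lay within 0.25 log2 of the truth and 83.2% within 0.6. The simulated signals were drawn from the recovered ones, with the noise that the recovery assumes, so real signals may be recovered less well. The members and lists were chosen with earlier results of these data known. Named genes were all members, the 2 genes with the smallest unadjusted p of each GABA list, and the 3 genes nearest to a member with a ratio of at least 0.5 in a pair (RIKEN, Gm and LOC symbols left out). Names come from the platform annotation and promoters from RefSeq (GRCm38.p6), where 7 of 7 members matched. Scanner files, saturation, slides and scan dates were not used here.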

Additional observations from a re-analysis of the deposited data

Results flagged for a closer look

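Of 36 series of 4 values checked (genes, features and marker medians), 3 had a value far from the other 3 by Dixon's test, where chance alone flags about 1 in 20. Gabra5 had -0.56 in pair 1, while pairs 2 to 4 lay between 0.060 and 0.16. Its dimmer feature, which is part of that mean, had -0.74 in pair 1 against 0.053 to 0.17. Slc6a11, the GABA transporter gene, had -0.27 in pair 4 against -0.033 to 0.0075.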

How the results depend on the processing

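With all 4 pairs, 0 genes passed the adjusted threshold under every alternative, and 0 of 7 subunits passed under any alternative, leaving out a pair included. At an unadjusted p under 0.05 in limma there were 501 genes, 75 with the ratios as deposited, 159 with median centring, 137 without the dye term, 180 without pair 1, 1085 without pair 3 and 2411 without pair 4. Leaving out a pair gave 0 to 5 genes past the adjusted threshold. A fit without 1 pair rests on 1 residual degree of freedom and on a single array of 1 orientation, which is assumed to vary like the rest. Genes with a dye effect numbered 1489, 12872 with the ratios as deposited, 14178 with median centring and 201 with features at or above the median signal, and 0 to 1785 without a pair. The setting with features at or above the median signal held 11065 genes, against 18861 in the reported fit. The cause of these moves was not tested.

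Of 223 recomputed values of 15 genes, 201 kept their sign and 22 reversed. Gabra4, Gabra3, Plcl2, Clptm1 and Slc6a11 kept theirs in every alternative run. With the ratios as deposited, Gabrb2 was at -0.16, Gabrg1 at -0.23, Clcn3 at -0.015 and Gad1 at -0.11. With median centring, Gabrb2 was at -0.090, Gabrg1 at -0.16, Gad1 at -0.045 and Gabre at 0.00039. Gabra2 was at 0.018 with arrays scaled to the same spread and at 0.044 with the brightest feature. Gabrg1 was at -0.0066 with features averaged within an accession first, which, like a signal read as whole numbers, was chosen after seeing the data. Leaving out a pair gave -0.13 to 0.098 for Gabra2, -0.22 to 0.097 for Gabra5, -0.13 to 0.042 for Gabrb1, -0.043 to 0.051 for Gabrb2, -0.041 to 0.068 for Gabrg1, -0.16 to 0.0067 for Gabrr1, -0.10 to 0.0063 for Gabre and -0.24 to 0.12 for Slc12a7. The cause was not tested. For Gabra4 the adjusted p in limma was 0.218 without pair 4 and at least 0.835 under every other alternative. Each ratio sets a cocaine mouse against the saline mouse of the same array, so the reported fit is itself paired.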
